A study of Mus musculus with 6 samples.

Results

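Genes of the unfolded protein response, of protein folding in the endoplasmic reticulum (ER) and of the heat shock response were followed through anti-TCR stimulation, GATA3 knockdown and long-term culture of mouse Th2 cells. The set was a list of 40 genes chosen by name: 3 sensors and transcription factors, 7 ER chaperones of the Hsp70 and Hsp90 families with their partners, 4 disulphide isomerases, 2 lectin chaperones, 2 secreted ER stress proteins, 8 genes of ER-associated degradation, 6 of the translocon, 6 cytosolic heat shock genes and 2 of the mitochondrial chaperonin. Of these, 39 were measured among 18194 genes that had a probe set naming them alone. Sec61g had no such probe set and was not analysed here.

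Splenic CD4 T cells of C57BL/6 mice, enriched by magnetic sorting, were activated through the TCR and CD28 for 5 days in the presence of IL-4 at 100 U/ml and IL-2 at 25 U/ml to give effector Th2 cells, named Th2-1st cells. Fully developed Th2 cells (Th2-4th cells) came from such cells by repeated cycles of 2 days without added cytokines and 5 days with anti-TCR mAb, IL-2 and a mAb that blocks IL-4, so that the cultures differed in time, number of TCR stimulations and IL-4 supply together. All cells of both cultures were electroporated with siRNA, and 24 h later each culture gave 1 array of control siRNA cells without stimulation, 1 of control siRNA cells stimulated for 4 h with immobilized anti-TCR mAb and 1 of GATA3 siRNA cells stimulated in the same way. With 1 array per condition there was no replicate, no error between cultures or animals and no test; a ratio over 2 or under 0.5 was counted as a change, and each log2 ratio was set beside the spread (robust SD) of the ratios of genes of like signal, which also holds real changes.

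Proteins that enter the secretory pathway fold in the ER with the help of chaperones, disulphide isomerases and lectins, and those that fail to fold are sent back to the cytosol for degradation. When the folding load exceeds this capacity, the sensors IRE1α (encoded by Ern1), ATF6 and PERK start the unfolded protein response: IRE1α splices Xbp1 mRNA, cleaved ATF6 enters the nucleus, and both raise the transcription of folding and degradation genes. The same program expands the ER in secretory cells, plasma cells being the textbook case, and the cytokines of T cells are made along the same route. The array measured the 3′ end of transcripts and so cannot tell spliced from unspliced Xbp1.

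The deposited signals were linear and had already been scaled to a common trimmed mean of 500.0 on every array. GATA3 knockdown was visible in its target, with Gata3 at 3312, 4883 and 1798 in unstimulated control, stimulated control and stimulated GATA3 siRNA Th2-1st cells, and at 4846, 9261 and 2853 in the Th2-4th cells. This was a log2 ratio of -1.44 and -1.70. Stimulation was visible in Il4, which went from 504 to 34734 in Th2-1st and from 729 to 45980 in the Th2-4th cells, and in 10 and 12 of 12 early and cytokine genes over 2-fold. All 6 measured T cell identity genes lay above the array median on every array, Cd4 at 188 to 882, and their summed signal was 35983 to 39525 in Th2-1st and 52607 to 58276 in the Th2-4th cells. Myeloid markers summed to 446 to 818, mast cell and basophil markers to 177 to 1256, CD8 T and NK markers to 325 to 1132 and fibroblast and erythroid markers to 39.1 to 105. Of the B cell and plasma cell markers, 9 of 10 were measured, and their sum was 6550 to 7340 in Th2-1st and 942 to 1714 in the Th2-4th cells. Ighm (immunoglobulin heavy chain) was the brightest of them on the 3 Th2-1st arrays, at 5360 to 5964, and at 693 in unstimulated Th2-4th cells, while Sdc1 was the brightest in stimulated Th2-4th cells. Cd79a, which defines B cells, was at 1.94 to 13.95 on all arrays.

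All 39 genes had a signal above the array median on all 6 arrays, and 34 lay above the 75th percentile on all 6. The median signal of the set was 4120 and 3737 in unstimulated Th2-1st and Th2-4th cells and 7019 to 8100 in the 4 stimulated populations. In the plot of all signals, the unstimulated symbols lie to the left of the stimulated ones for most genes, and the control and GATA3 siRNA symbols of a culture lie close together.

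**Figure D1:**
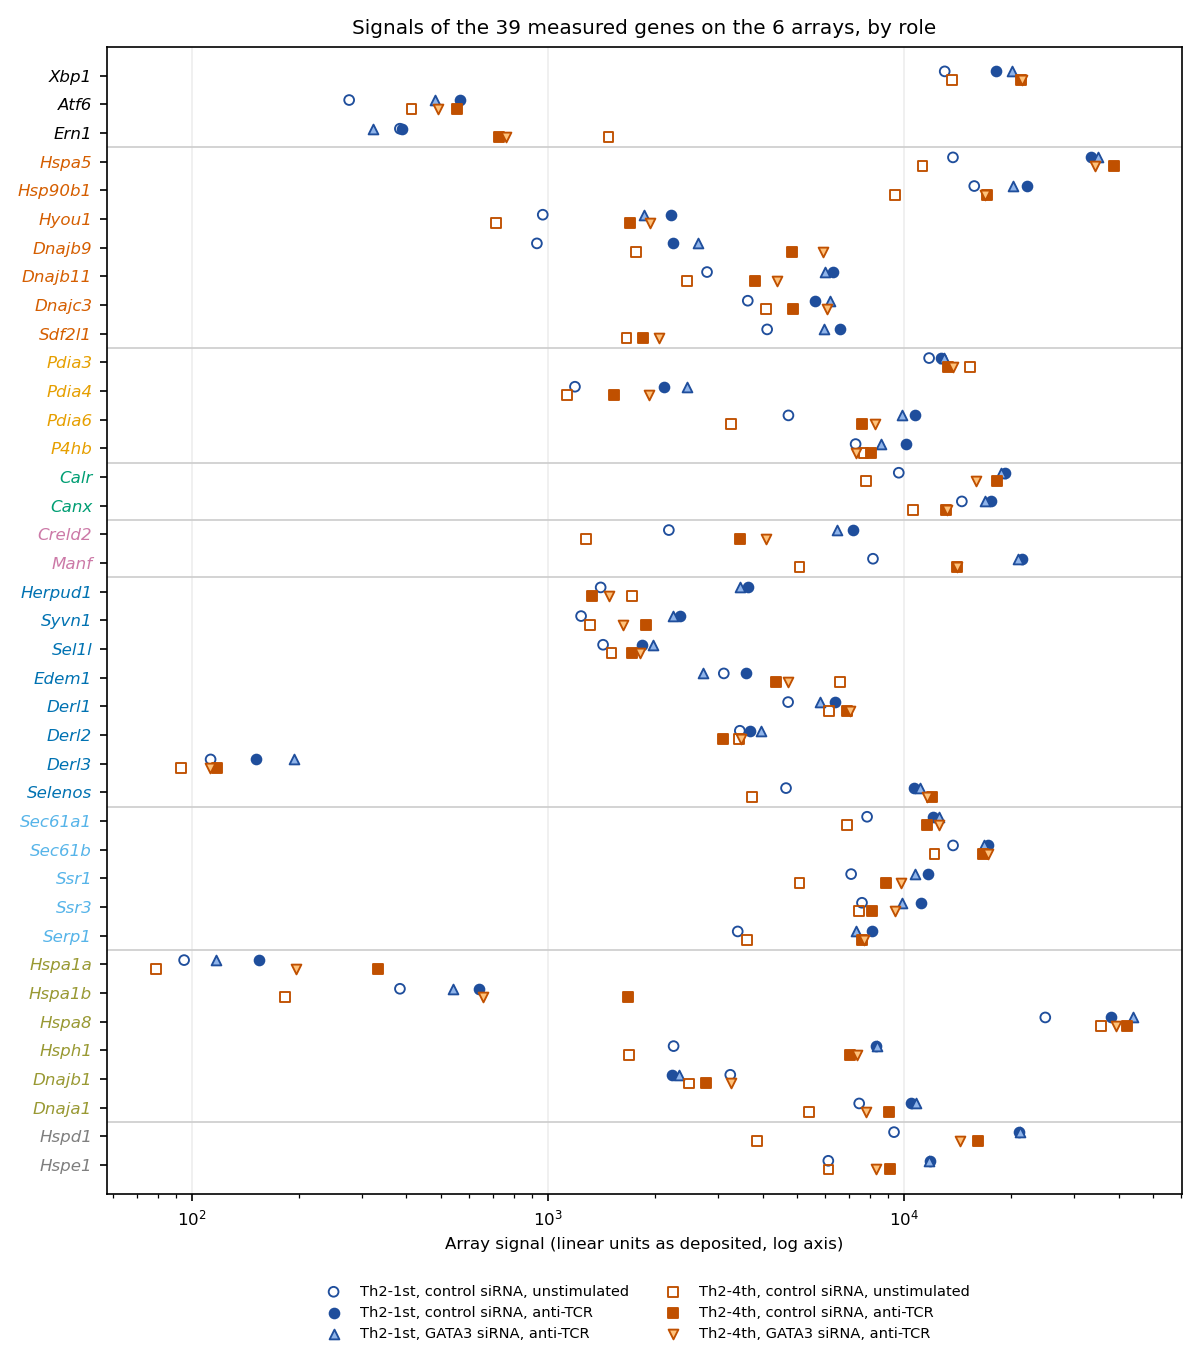
Array signal (linear units as deposited, log axis) of each of the 39 measured genes on the 6 arrays, grouped by role, with circles and upward triangles for Th2-1st and squares and downward triangles for Th2-4th cells. Each symbol is 1 array; unstimulated cells are open symbols, and Hspa5 for example goes from 13699 to 33385 and from 11256 to 38763 on stimulation.

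Anti-TCR stimulation raised many of these genes in both cultures. In Th2-1st cells 13 of 39 (33.3%) were over 2-fold higher after 4 h and 0 were under 0.5-fold, where 17.5% of all genes were over 2-fold and 16.9% under 0.5-fold. In Th2-4th cells 13 were over 2-fold and 1 (2.56%) was under 0.5-fold, against 18.7% and 21.6% of all genes. Where the signal was above the median of at least 1 of the 2 arrays, a class to which every measured member belongs, the background was 10.7% over and 16.7% under in Th2-1st cells and 14.6% over and 21.0% under in the Th2-4th cells. The median log2 ratio of the set was 0.70 in Th2-1st and 0.57 in the Th2-4th cells, against -0.01 and -0.10 over all genes, and 38 and 34 of the 39 ratios were above 0. The ratio was larger than 1 spread in 25 and 18 of the 39 genes and larger than 2 spreads in 9 and 7. Of all 18194 genes, 8997 and 8443 had a ratio above 0. Beyond 1 spread were 6572 and 6368 of them, and beyond 2 spreads 1754 and 1631.

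These 2 ratios share no array. Creld2, Dnajb9, Hspa5, Hspd1, Hsph1, Hyou1, Manf, Pdia6, Selenos and Serp1 were over 2-fold in both, which is 10 genes, or 76.9% of the 13 in either culture. The same overlap was not computed over all genes, so this share has no background and describes the list alone. Across the 39 genes the log2 ratios of both cultures had a Pearson r of 0.60 and a Spearman rho of 0.68, against 0.44 and 0.46 across all genes. The 39 genes all lay above the array median on every array, whereas all genes include dim ones. No correlation at like signal was computed. Genes are not independent replicates, so these correlations describe the 4 arrays. A bulk RNA signal cannot tell more RNA per cell from more cells of a type. Beside the stimulation, the B cell and plasma cell marker sum went from 6593 to 7340 in Th2-1st and from 942 to 1714 in the Th2-4th cells, with 3 to 4 and 1 to 2 of the 9 genes above the array median. The single largest part of that was Sdc1 (syndecan-1, a plasma cell marker that other activated cells can carry), at 36.6 and 501 in Th2-1st and 19.5 and 1403 in the Th2-4th cells, while Jchain went from 390 to 648 and from 36.9 to 52.1. Ighm went the other way in Th2-4th cells, from 692.5 to 76.8, and was at 5856 and 5964 in Th2-1st cells. The part of such cells in the response was not tested.

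**Figure D2:**
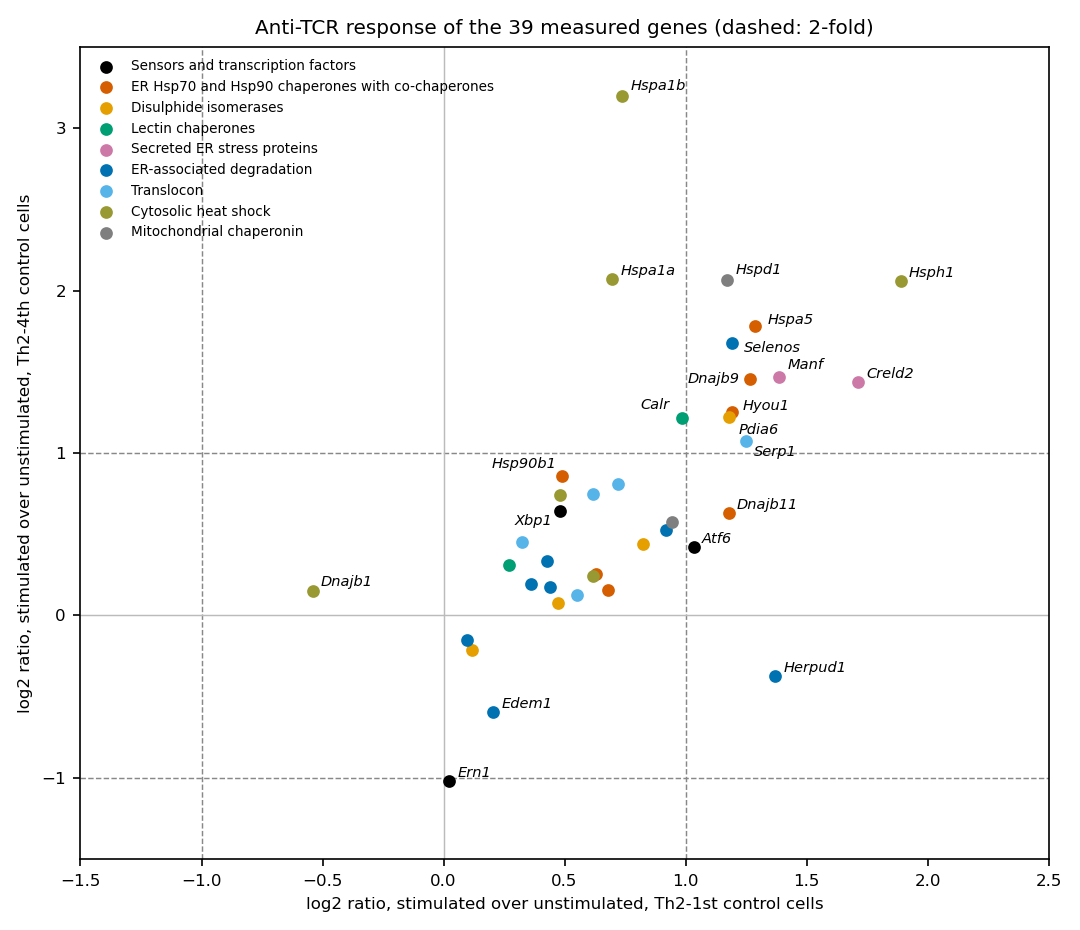
Log2 ratio of stimulated over unstimulated control siRNA cells in Th2-1st (x axis) and Th2-4th cells (y axis); each point is 1 of the 39 genes, coloured by role, and dashed lines mark 2-fold. The 10 genes over 2-fold in both cultures lie at the upper right, Herpud1 at the lower right (1.37 and -0.37) and Hspa1b at the top (0.74 and 3.20).

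Among the sensors and transcription factors, Xbp1, the transcription factor activated by IRE1α, was at 12988, 18132 and 20031 in unstimulated control, stimulated control and stimulated GATA3 siRNA Th2-1st cells, and at 13604, 21267 and 21360 in the Th2-4th cells. (Signals below keep this order.) Its total transcript signal was thus higher on all 4 stimulated arrays than on either unstimulated one, by 1.40-fold and 1.56-fold, which is below the 2-fold threshold and at log2 ratios of 0.48 and 0.64 exceeds the spread of 0.37 and 0.46. This Xbp1 probe set is prone to cross-hybridization, and the 2 that are not gave 0.41 and 0.77 and, at a far lower signal, -0.06 and 0.12. Atf6, the membrane-bound sensor that becomes a transcription factor on cleavage, gave 276, 566 and 480 in Th2-1st and 413, 553 and 489 in the Th2-4th cells. The probe set used put it at 2.05-fold in Th2-1st and 1.34-fold in the Th2-4th cells. Its other probe sets gave log2 ratios of 1.57 and 2.06 in Th2-1st and 1.48 and 1.57 in the Th2-4th cells, so all 3 probe sets had the smaller ratio in Th2-4th cells, and the probe set used was the 1 under 2-fold there.

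Ern1, the IRE1α kinase and endonuclease that splices Xbp1, showed 383, 389 and 322 in Th2-1st cells but 1476, 729 and 759 in Th2-4th cells. The highest value was that of unstimulated Th2-4th cells. Stimulation left it at 1.02-fold in Th2-1st cells and lowered it to 0.494-fold in the Th2-4th cells, the 1 gene of the set under 0.5-fold. The log2 ratio of -1.02 was close to the spread of 0.92, and the next brightest probe sets for Ern1 gave -0.42 and 0.19 in Th2-4th cells. Another 2, below the array median on every array, gave -0.18 and -1.12, so 4 of 5 probe sets were lower and the size differed between them.

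Hspa5 (BiP), the Hsp70 chaperone of the ER lumen and the classical target of the response, was at 13699, 33385 and 35023 in Th2-1st and 11256, 38763 and 34340 in the Th2-4th cells. Both unstimulated arrays were low and all 4 stimulated arrays high. Stimulation raised it 2.44-fold and 3.44-fold, at log2 ratios of 1.29 (spread 0.37) and 1.78 (spread 0.46). The second probe set gave 1.53 and 2.26 and the third -0.08 and 0.96, both being prone to cross-hybridization. The brightest of all probe sets was 1.39 to 1.52 times as bright as Hspa5 on the stimulated arrays. On the unstimulated arrays it was 2.68 and 5.11 times as bright. Whether the Hspa5 signal was near an upper limit of the array was not tested.

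The promoters of several of these genes hold a well-known sequence. The ER stress response element consists of CCAAT and CCACG with 9 bases of any kind between them, and is bound by ATF6 and XBP1 together with the CCAAT factor NF-Y. It was searched on both strands in windows from 250 bases before to 50 bases after each annotated transcription start in RefSeq (GRCm38.p6), which held 40 windows for 34 of the 40 genes. The element was in 9 of the 40 windows (22.5%), 1 for each of Hspa5, Hsp90b1, Dnajc3, Pdia6, Calr, Canx, Creld2, Syvn1 and Derl3, against 39 of all 32851 windows (0.119%). Several of these genes are textbook targets of the response, so the share describes the list and is no finding about these cells. The windows of Hspa5, Hsp90b1 (with 2 matches), Calr, Pdia6, Creld2 and Canx are shown because they cover the range of responses, from genes that rose in both cultures to Canx, which did not reach 2-fold. Capitals mark CCAAT and CCACG, and each sequence runs 5′ to 3′ on the strand given:
Hspa5, chr2:34772010-34772058, plus strand: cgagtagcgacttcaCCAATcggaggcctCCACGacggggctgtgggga
Hsp90b1, chr10:86705623-86705671, minus strand: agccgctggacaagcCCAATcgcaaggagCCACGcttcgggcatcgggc
Hsp90b1, chr10:86705518-86705566, plus strand: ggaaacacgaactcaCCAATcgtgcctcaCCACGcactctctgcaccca
Calr, chr8:84847060-84847108, plus strand: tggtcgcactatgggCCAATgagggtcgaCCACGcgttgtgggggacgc
Pdia6, chr12:17266476-17266524, plus strand: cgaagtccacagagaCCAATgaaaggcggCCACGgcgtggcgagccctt
Creld2, chr15:88819505-88819553, minus strand: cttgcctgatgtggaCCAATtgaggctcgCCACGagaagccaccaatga
Canx, chr11:50325785-50325833, minus strand: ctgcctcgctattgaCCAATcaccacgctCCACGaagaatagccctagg

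All matches lay upstream of the start, the nearest in Syvn1 with its first base 44 bases before it, and the farthest in Hsp90b1 with its first base 212 bases before it. CCACG alone, which lies inside the element, was in 31 of 40 windows (77.5%), against 32.8% of all windows. The core of the XBP1 element, TGACGTGG, was in 0 of the 40 windows, against 0.676% of all, which says only that these letters are not in these windows. The 9 genes with the ER stress response element had a median log2 ratio on stimulation of 0.92 in Th2-1st and 0.86 in the Th2-4th cells, with 3 and 4 of them over 2-fold. Among ER genes of the set with a window and no match, 17 in number, the medians were 0.55 and 0.19, with 5 and 3 over 2-fold. The 11 measured genes outside the set whose windows held the element had medians of 0.47 and 0.00. A match to these letters is no measured binding site, and these medians carry no test.

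**Figure D3:**
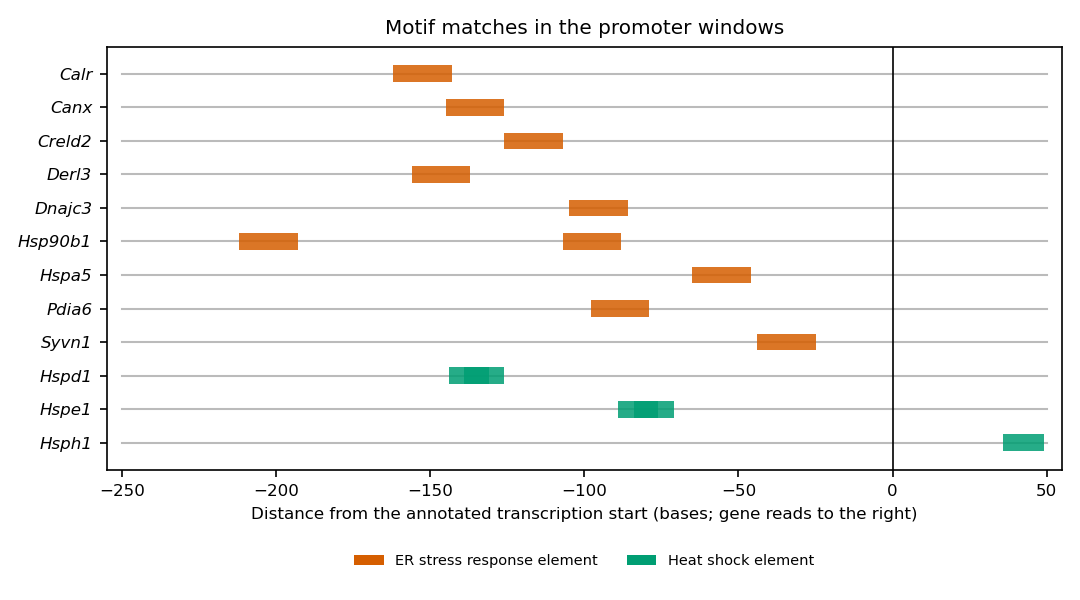
Positions of the ER stress response element (orange) and the heat shock element (green) in promoter windows from 250 bases before to 50 bases after the annotated start of 12 genes, with 1 window drawn per gene and the gene reading to the right. The ER stress response element lies upstream of the start in all 9 genes that hold it, and the Hsph1 heat shock element lies past the start.

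The partners of Hspa5 in the ER followed in part. Hyou1 (Grp170), a large Hsp70-type chaperone and nucleotide exchange factor of BiP, was at 966, 2206 and 1861 in Th2-1st and 714, 1700 and 1929 in the Th2-4th cells, 2.28-fold and 2.38-fold higher with stimulation. Dnajb9 (ERdj4), a J-domain cochaperone of BiP and a known target of XBP1, gave 930, 2236 and 2633 in Th2-1st and 1765, 4849 and 5925 in the Th2-4th cells. It was 2.41-fold and 2.75-fold higher with stimulation, and every Th2-4th array was above its Th2-1st counterpart. Dnajb11 (ERdj3), another J-domain partner that binds unfolded clients, showed 2793, 6319 and 5982 in Th2-1st and 2454, 3797 and 4377 in the Th2-4th cells. It rose 2.26-fold in Th2-1st cells and was at 1.55-fold in the Th2-4th cells, where the log2 ratio of 0.63 was below the spread of 0.96.

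Hsp90b1 (Grp94), the Hsp90 of the ER, was at 15721, 22097 and 20224 in Th2-1st and 9404, 17056 and 16881 in the Th2-4th cells. At 1.41-fold and 1.81-fold it stayed under the threshold in both cultures although its window held the element at 2 places. Dnajc3 (p58IPK), a cochaperone that also inhibits PERK, was at 1.55-fold and 1.19-fold by its brightest probe set, while the other 4 gave log2 ratios of -0.45 to 0.07 in Th2-1st and -0.36 to 0.00 in the Th2-4th cells. Sdf2l1, a partner of ERdj3 and BiP, was at 4120, 6595 and 5944 in Th2-1st and 1660, 1851 and 2051 in the Th2-4th cells. Its stimulation ratios were 1.60-fold and 1.12-fold, and all 3 Th2-4th signals lay below all 3 Th2-1st signals.

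Of the 4 disulphide isomerases, which form and rearrange disulphide bonds in the ER, Pdia6 was over 2-fold. It gave 4728, 10697 and 9841 in Th2-1st and 3258, 7591 and 8293 in the Th2-4th cells, which was 2.26-fold and 2.33-fold with stimulation. Pdia4 was at 1.77-fold and 1.36-fold, P4hb at 1.39-fold and 1.05-fold and Pdia3, which works with the lectin chaperones on glycoproteins, at 1.08-fold and 0.864-fold. The lectins hold newly made glycoproteins until they fold. Calr (calreticulin, soluble) was at 9650, 19123 and 18687 in Th2-1st and 7816, 18176 and 15917 in the Th2-4th cells, 1.98-fold and 2.33-fold, so it lay just under the threshold in Th2-1st cells at a log2 ratio of 0.99. Canx (calnexin, its membrane-bound relative) was at 1.21-fold and 1.24-fold.

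The secreted ER stress proteins were over 2-fold in both cultures. Creld2, an ER protein that stressed cells secrete, was at 2182, 7157 and 6493 in Th2-1st and 1279, 3465 and 4079 in the Th2-4th cells. This was 3.28-fold and 2.71-fold, at log2 ratios of 1.71 (spread 0.61) and 1.44 (spread 0.95). Manf, an ER-retained protein released under stress, gave 8167, 21366 and 20904 in Th2-1st and 5080, 14033 and 14079 in the Th2-4th cells, or 2.62-fold and 2.76-fold. For both genes the stimulated arrays of a culture lay far above the unstimulated one, and each Th2-4th signal was below its Th2-1st counterpart.

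ER-associated degradation was divided. Selenos, a selenoprotein that ties the degradation machinery to the p97 ATPase, was at 4655, 10619 and 11086 in Th2-1st and 3737, 11943 and 11586 in the Th2-4th cells, 2.28-fold and 3.20-fold higher with stimulation. Herpud1, an ER membrane protein that organizes the degradation complex around the ubiquitin ligase HRD1, was at 1404, 3629 and 3453 in Th2-1st but 1720, 1329 and 1482 in Th2-4th cells. Both stimulated Th2-1st arrays stood above the other 4 arrays.

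Stimulation thus raised Herpud1 2.59-fold in Th2-1st cells, with a log2 ratio of 1.37 against a spread of 0.77, while in Th2-4th cells it was at 0.773-fold, with -0.37 against 0.90. A second probe set gave 1.68 and -0.93. Edem1, which draws misfolded glycoproteins out of the folding cycle, was at 3113, 3585 and 2718 in Th2-1st and 6600, 4370 and 4722 in the Th2-4th cells. Its highest value was that of unstimulated Th2-4th cells, and its stimulation ratios were 1.15-fold and 0.662-fold. Syvn1, the HRD1 ligase itself, was at 1.89-fold and 1.44-fold, and its partner Sel1l at 1.28-fold and 1.14-fold. The derlins, which help to pass substrates across the membrane, lay between 0.900-fold and 1.36-fold, with Derl3 at a low signal of 93.2 to 193 on all arrays.

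In the translocon group, which threads new chains into the ER, Serp1, a small protein that stabilizes membrane proteins under stress, was over 2-fold in both cultures. It was at 3406, 8100 and 7314 in Th2-1st and 3613, 7594 and 7699 in the Th2-4th cells, 2.38-fold and 2.10-fold. Channel and translocon-associated subunits lay between 1.09-fold and 1.75-fold with stimulation: Sec61a1 was at 1.53-fold and 1.68-fold, Sec61b at 1.25-fold and 1.37-fold, Ssr1 at 1.65-fold and 1.75-fold and Ssr3 at 1.47-fold and 1.09-fold. All of these ratios were above 1. Of the 5 other probe sets of Sec61a1, 2 were over 2-fold in both cultures, with log2 ratios of 1.13 and 1.28 in Th2-1st and 1.19 and 1.14 in the Th2-4th cells, and the dimmest of Ssr1 was at -0.44 in the Th2-4th cells.

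The heat shock genes outside the ER held the largest stimulation ratio of the set in either culture. Hsph1 (Hsp105), a cytosolic nucleotide exchange factor for Hsp70, was at 2250, 8327 and 8358 in Th2-1st and 1687, 7019 and 7378 in the Th2-4th cells. It rose 3.70-fold and 4.16-fold, at log2 ratios of 1.89 (spread 0.61) and 2.06 (spread 0.96). Hspd1 (Hsp60), the mitochondrial chaperonin, was at 9358, 21062 and 21087 in Th2-1st and 3865, 16154 and 14354 in the Th2-4th cells, 2.25-fold and 4.18-fold with stimulation. Its co-chaperonin Hspe1 (Hsp10), transcribed divergently from the same promoter region, was at 1.92-fold and 1.49-fold. The Hspe1 probe set used is prone to cross-hybridization, and the one that is not gave log2 ratios of 0.84 and 1.08, past 2-fold in the Th2-4th cells.

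Hspa1b, an inducible cytosolic Hsp70, gave 383, 640 and 542 in Th2-1st and 183, 1677 and 656 in the Th2-4th cells. The stimulated control Th2-4th array stood above the other 5. The stimulation ratio was 1.67-fold in Th2-1st and 9.19-fold in the Th2-4th cells, the largest of the 39 genes in either culture, at log2 ratios of 0.74 (spread 0.85) and 3.20 (spread 0.90). Its other probe sets gave 0.42 and 0.50 in Th2-1st and 2.13 and 2.51 in the Th2-4th cells. Hspa1a, its near-identical neighbour, was at 95.0, 154 and 117 in Th2-1st and 79.0, 332 and 196 in the Th2-4th cells, 1.62-fold and 4.20-fold. Because these genes are near-identical in sequence, their probe sets can share signal and are not independent evidence.

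The constitutive Hsp70 Hspa8 was at 24889, 38169 and 43922 in Th2-1st and 35699, 42272 and 39405 in the Th2-4th cells, 1.53-fold and 1.18-fold with stimulation. The brightest of all probe sets was 1.19 to 1.39 times as bright on the stimulated arrays and 1.47 and 1.61 times on the unstimulated ones. Whether the Hspa8 signal was near an upper limit of the array was not tested either. The Hspa8 probe set used is prone to cross-hybridization. Those of Hspa8 that are not gave log2 ratios of 0.24 and 0.80 and, at a lower signal, 1.26 and 3.03, so the larger ratio was that of Th2-1st cells in the probe set used and that of Th2-4th cells in these. Dnaja1, a J-domain partner of cytosolic Hsp70, was at 1.40-fold and 1.67-fold, with a probe set prone to cross-hybridization at log2 ratios of -0.34 and 0.71. Dnajb1 (Hsp40), a textbook heat shock gene, was at 0.687-fold and 1.11-fold. Dnajb1 was the 1 gene of the set below its unstimulated level in Th2-1st cells, at a log2 ratio of -0.54 that was within the spread of 0.73.

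The heat shock element, searched as GAA, TTC and GAA with 2 bases of any kind between neighbours and on both strands, was in 4 of the 40 windows (10%) and in 3 genes, Hsph1, Hspd1 and Hspe1, against 0.603% of all windows. Hspd1 and Hspe1 share the same bases, read from either side, and the 2 matching Hsph1 windows overlap on the same bases. The 4 windows thus stand for 2 places in the genome. The genes were chosen by name, so the share describes the list and is no finding about these cells. The match shared by Hspd1 and Hspe1 and that of Hsph1 are shown, as these 3 genes held the element. Matched letters are in capitals:
Hspd1 and Hspe1, chr1:55088056-55088084, plus strand: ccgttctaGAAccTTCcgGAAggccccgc
Hsph1, chr5:149636280-149636308, plus strand: actgaggaGAActTTCcaGAAtctgcagc
In Hsph1 the match lay past the annotated start.

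With GATA3 siRNA nearly the whole set lay within 2-fold of the control siRNA cells. In stimulated Th2-1st cells 0 of 39 genes were over 2-fold or under 0.5-fold with GATA3 siRNA, where 13.3% of all genes were over and 7.49% under. Where the signal was above the median of either array, 4.41% were over and 2.26% under. Among those above the 75th percentile the shares were 1.12% and 0.944%, so few bright genes of any kind passed and a count of 0 among 39 is not far from that background. The median log2 ratio was -0.03, with a range from -0.40 (Edem1) to 0.35 (Derl3), and the median spread was 0.12. In 15 genes the ratio was beyond 1 spread and in 3 beyond 2 spreads. Of all 18194 genes 6240 were beyond 1 spread and 1663 beyond 2 spreads, shares near those of the set.

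In stimulated Th2-4th cells 0 genes were over 2-fold and 1 (2.56%), Hspa1b, was under 0.5-fold with GATA3 siRNA, against 10.6% of all genes in either direction. Among genes above the array median on either array the shares were 3.00% over and 3.49% under, and above the 75th percentile 0.740% and 1.31%. The median log2 ratio was 0.05, and without Hspa1b and Hspa1a every ratio lay between -0.22 (Syvn1) and 0.33 (Pdia4). Hspa5 was at 1.05-fold and 0.886-fold, Xbp1 at log2 ratios of 0.14 and 0.01 and Manf at log2 ratios of -0.03 and 0.00, the Th2-1st value coming first.

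The fall of Hspa1b was from 1677 to 656 in Th2-4th cells, 0.391-fold at a log2 ratio of -1.35 against a spread of 0.28. Its other probe sets gave -0.62 and -1.08, the first of them prone to cross-hybridization. In Th2-1st cells the same ratio was -0.24, from 640 to 542. Hspa1a was at -0.76 in Th2-4th and -0.40 in Th2-1st cells. Beside these values, the mast cell and basophil markers summed to 1256 and 335 on the same control and GATA3 siRNA arrays of Th2-4th cells and to 339 and 177 in Th2-1st cells, with Cpa3 and Mcpt8 carrying most of it and Kit, Fcer1a, Ms4a2 and Hdc at 3.89 to 51.3 throughout. Their part in the Hspa1b result was not tested. The comparisons of stimulation and of knockdown in a culture share the stimulated control array, so a signal that is high there, as that of Hspa1b in Th2-4th cells, enters both ratios.

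**Figure D4:**
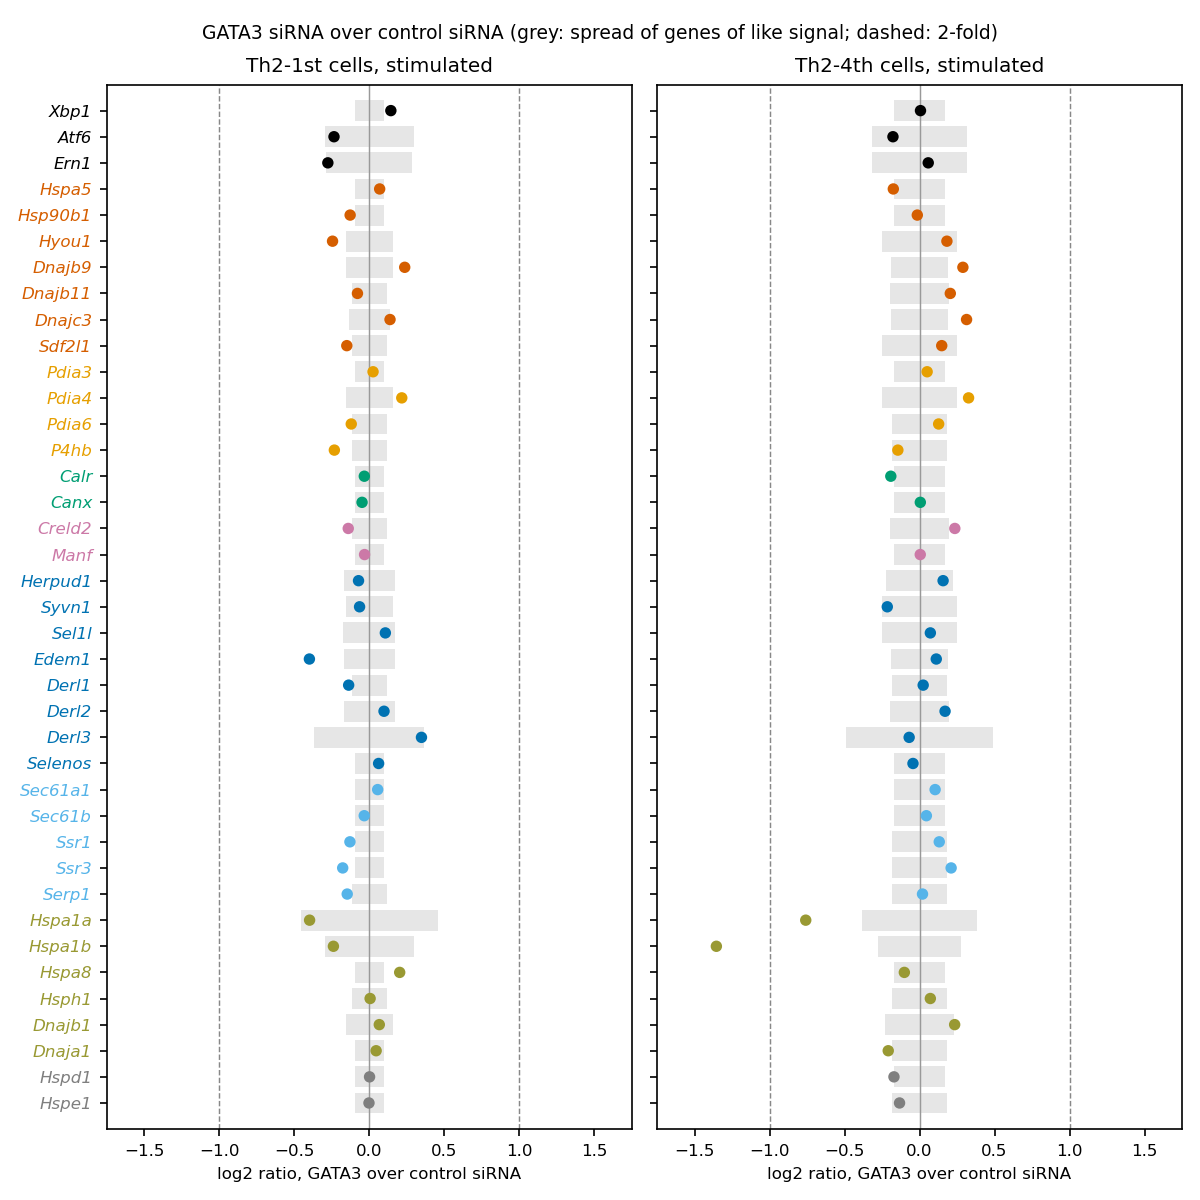
Log2 ratio of GATA3 siRNA over control siRNA in stimulated Th2-1st (left) and Th2-4th cells (right) for the 39 genes, coloured by role; grey bars are 1 robust SD of the ratios of genes of like signal to either side of 0 and dashed lines mark 2-fold. Hspa1b at -1.35 in Th2-4th cells is the 1 point beyond 2-fold.

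Between the culture stages, genes of the set were past 2-fold in both directions. In unstimulated control cells 2 genes (5.13%) were over 2-fold in Th2-4th against Th2-1st cells and 3 (7.69%) under 0.5-fold, where 19.5% and 12.3% of all genes were. In stimulated control cells the numbers were 3 over and 3 under, each 7.69%, against 17.2% and 12.7%. Among genes above the array median on either array the background was 11.9% over and 9.22% under without stimulation and 11.4% and 7.93% with it. The median log2 ratio was -0.19 and -0.21, against 0.17 and 0.10 over all genes, and 24 and 27 of the 39 ratios were below 0. Of all 18194 genes 7608 and 8184 had a ratio below 0. These ratios share no array with each other, but each shares both of its arrays with the stimulation ratios above.

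Ern1 was 3.85-fold higher in unstimulated Th2-4th cells (1476 against 383) and 1.87-fold higher in stimulated ones. The log2 ratio of 1.95 was beyond the spread of 0.59, while its next brightest probe sets gave 0.49 and 0.66. Edem1 was 2.12-fold higher in unstimulated Th2-4th cells, with 1.08 from the probe set used and 1.07 from the second. Dnajb9 was 1.90-fold higher in unstimulated and 2.17-fold higher in stimulated Th2-4th cells.

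Sdf2l1 was lower in Th2-4th cells in both states, 0.403-fold without and 0.281-fold with stimulation, at log2 ratios of -1.31 (spread 0.66) and -1.83 (spread 0.53). Hspd1 was at 0.413-fold in unstimulated and 0.767-fold in stimulated Th2-4th cells. Herpud1 was at 1.23-fold without stimulation and 0.366-fold with it, at -1.45 from the probe set used and -1.96 from the second. Creld2 was at 0.586-fold and 0.484-fold.

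Hspa1b was at 0.476-fold in unstimulated and 2.62-fold in stimulated Th2-4th cells, and Hspa1a at 0.832-fold and 2.16-fold. The other probe sets of Hspa1b gave log2 ratios of -0.45 and -0.59 without stimulation, short of 2-fold. A second probe set of Hsp90b1, dimmer than the one used (-0.74 and -0.37), put it at -1.55 and -1.64, and the Hspe1 probe set not prone to cross-hybridization was at -1.04 and -0.80 where the one used was at 0.00 and -0.37. Hspa5 (0.822-fold and 1.16-fold) and Xbp1 (1.05-fold and 1.17-fold) stayed near their Th2-1st level by the probe sets used. Without stimulation the other probe sets gave log2 ratios of -0.63 and -0.66 for Hspa5 and -0.31, -0.63 and 0.33 for Xbp1. With stimulation they gave 0.10 and 0.37 for Hspa5 and 0.04 to 0.51 for Xbp1. The cultures also differed in the B cell and plasma cell markers given above, with 3 or 4 of the 9 genes above the array median on the Th2-1st arrays and 1 or 2 on the Th2-4th arrays. Jchain was at 390 to 648 and at 36.9 to 52.1, and without Ighm the sums were 737 to 1376 and 249.5 to 1638. Their part in the culture-stage results was not tested, while Cd79a, Pax5, Cd22, Ms4a1 and Blnk were at 84.3 or lower on all arrays. Cd79b, which also defines B cells, was at 115 in unstimulated Th2-1st cells, above the array median of 62.5, and below the median on the other 5 arrays, at 44.6 and 51.8 in the stimulated Th2-1st cells and 19.5 to 32.3 in the Th2-4th cells. The mast cell and basophil markers summed to 645 and 831 in unstimulated Th2-1st and Th2-4th control cells and to 339 and 1256 in the stimulated ones. Among them Mcpt8, a basophil protease, was at 3.01 and 183 without stimulation and at 7.62 and 873 with it, and the stimulated control Th2-4th array is also the one where Hspa1b was highest. Their part was not tested either.

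**Figure D5:**
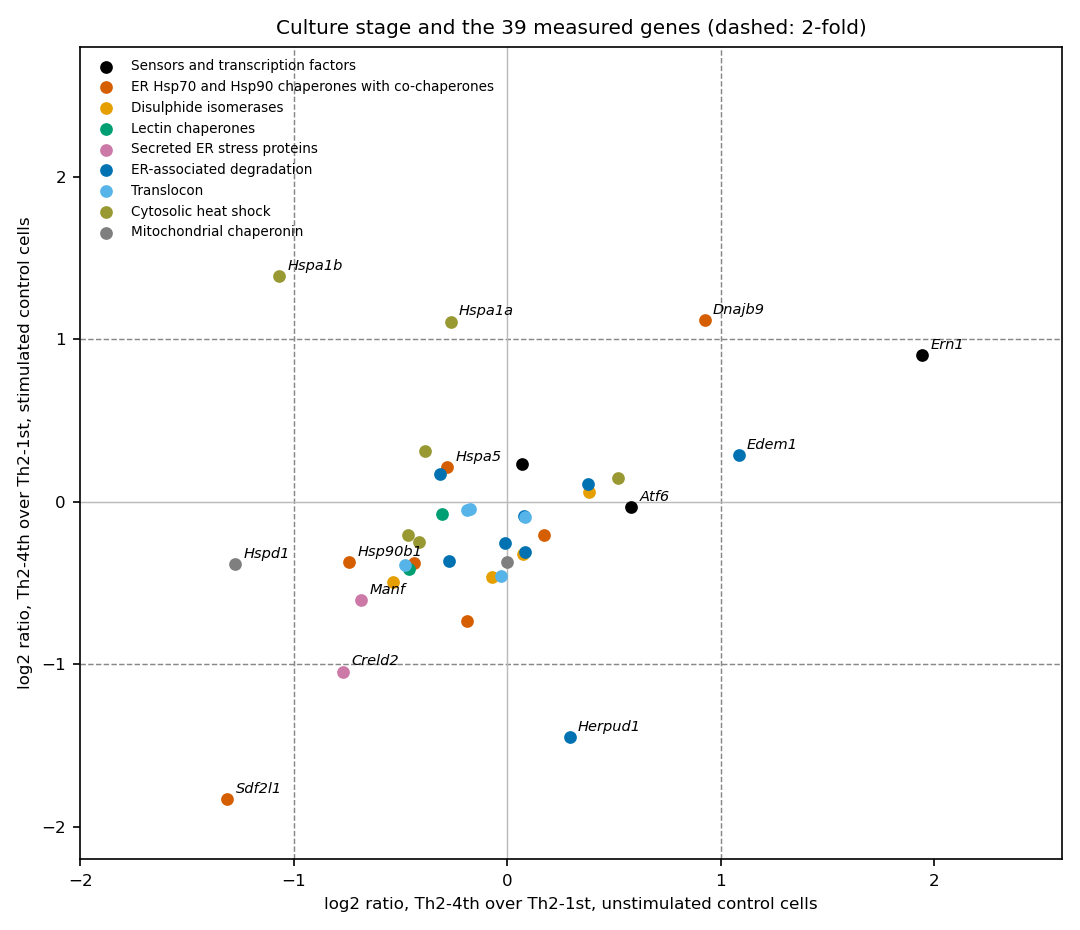
Log2 ratio of Th2-4th over Th2-1st control siRNA cells without stimulation (x axis) and with stimulation (y axis) for the 39 genes, coloured by role; each point is 1 gene and dashed lines mark 2-fold. Sdf2l1 is under 0.5-fold on both axes (-1.31 and -1.83), and Ern1 lies farthest to the right at 1.95.

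A further 5 lists hold the rest of the pathway, 112 measured of 120 genes. On stimulation 15 of them were over 2-fold and 3 under 0.5-fold in Th2-1st cells, and 22 and 8 in the Th2-4th cells, with median log2 ratios of 0.34 and 0.31. With GATA3 siRNA 0 and 2 were over and 2 and 3 under, the Th2-1st count coming first. Of all genes, 17.5% were over 2-fold and 16.9% under 0.5-fold on stimulation in Th2-1st, and 18.7% and 21.6% in the Th2-4th cells. The 5 lists were thus over 2-fold no more often than all genes in Th2-1st, and about as often in the Th2-4th cells. They were under 0.5-fold less often than all genes in both cultures. Among genes above the array median on either array, 10.7% and 14.6% were over 2-fold and 16.7% and 21.0% under 0.5-fold. In both cultures the 5 lists were more often over 2-fold than these and less often under, though some listed genes lay below the median. With GATA3 siRNA 13.3% and 10.6% of all genes were over and 7.49% and 10.6% under. These shares also stand behind the counts of each list below.

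The PERK arm lowers translation through eIF2α and raises ATF4 and its targets, which other stresses also do. Of its 11 measured genes, 4 were over 2-fold and 0 under 0.5-fold in Th2-1st cells and 3 over and 3 under in the Th2-4th cells. Atf4 was at 3543 and 10126 before and after stimulation in Th2-1st and at 3583 and 6989 in the Th2-4th cells, log2 ratios of 1.52 and 0.96. Atf3, a stress and immediate early transcription factor, gave 124 and 1444 and then 166 and 2986, or 3.55 and 4.17. Chac1, an ATF4 target that degrades glutathione, was at 78.7 and 357 and at 54.4 and 333, or 2.18 and 2.61.

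Eif2ak3, which encodes PERK, was at -0.34 and -1.36 on the log2 scale, and Ddit3 (CHOP), the factor linked to death under lasting stress, at -0.33 and -1.79. Ddit3 was highest in unstimulated Th2-4th cells, at 1684, and between 489 and 623 on the other 5 arrays. Ppp1r15a (GADD34), which restores translation, was at 1.10 and 0.9977, the second just under 2-fold, and Trib3 at 0.34 and 0.58. Cebpb was at 0.72 and 1.91. With GATA3 siRNA, Atf3 was at -0.47 in Th2-1st and -1.53 in the Th2-4th cells and Cebpb at -0.45 and -1.08.

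Among 29 other measured genes of ER folding and quality control, 6 were over 2-fold and 1 under 0.5-fold in Th2-1st and 7 and 2 in the Th2-4th cells. Ero1a, the oxidase that recharges the disulphide isomerases and is also induced by hypoxia, was at 5497, 15671 and 5958 in Th2-1st and 8891, 24810 and 9472 in the Th2-4th cells. Stimulation raised it (log2 ratios of 1.51 and 1.48), and it was the 1 gene of this list under 0.5-fold with GATA3 siRNA, in both cultures (-1.40 and -1.39). The GATA3 siRNA arrays lay close to the unstimulated ones. Fkbp11, a prolyl isomerase of secretory cells, was at 2.38 and 1.22, Pdia5 at 1.61 and 1.66 and Cnpy2 at -0.83 and -1.38 on stimulation.

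The 16 other degradation genes had 1 over 2-fold and 0 under in Th2-1st cells and 0 and 2 in the Th2-4th cells, at medians of -0.10 and -0.12. Ube2g2, a ubiquitin-conjugating enzyme of the pathway, was at 1.11 and 0.96, Herpud2 at -0.92 and -1.55, Ngly1, which strips glycans from retrieved proteins, at -0.76 and -1.17 and Erlec1 at -0.41 and -0.68. Of 25 genes of translocation, signal peptidase and glycosylation, 1 was over 2-fold in Th2-1st and 5 in the Th2-4th cells and 0 were under in either. Srprb, a subunit of the signal recognition particle receptor, was at 1.41 and 0.95, and the oligosaccharyltransferase subunits Stt3a and Rpn1 were at 0.66 and 1.30 and at 0.90 and 1.22. Srp68 was at 0.30 and 1.19.

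Of 31 other heat shock and cytosolic folding genes, 3 were over and 2 under in Th2-1st and 7 and 1 in the Th2-4th cells. Hspa9 (mortalin), the mitochondrial Hsp70, was at 4645, 11115 and 10735 in Th2-1st and 1541, 8544 and 7749 in the Th2-4th cells, log2 ratios of 1.26 and 2.47 on stimulation. Dnajb4 was at -1.67 and -2.77, Hsf2, a heat shock transcription factor, at 1.50 and 0.94, and the inducible Hsp90 gene Hsp90aa1 at 0.23 and 1.33. Serpinh1, a collagen chaperone, was at 3.88 and -0.47 at signals of 5.41 to 94.7, where the array medians were 61.8 to 74.2. With GATA3 siRNA, Hspa4l was higher, at log2 ratios of 0.74 (spread 0.21) in Th2-1st and 1.16 (spread 0.28) in the Th2-4th cells. Dnajb4 was at 0.04 and 0.99. The other calls of this list with GATA3 siRNA were those of Serpinh1, at -2.36 and 1.46 and at the low signals given. Hsf1 and Hsp90ab1 lacked a probe set of their own and were not analysed here.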

How the data were processed

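RNA of 6 cell populations was hybridised to Affymetrix mouse 3′ expression arrays, 1 array per condition. The authors deposited 1 linear signal intensity per probe set, exported from the Affymetrix Expression Console. Its version is not given in the sources used here, nor is its summary algorithm. The trimmed mean (2% removed at either end) of the deposited intensities was 500.0 on every array. Of 45101 probe sets, the platform annotation tied 34958 to 1 gene, 932 to several and 9211 to none, and 34754 (99.4%) of the first matched a RefSeq symbol. Each gene was read from its brightest probe set by mean log2 intensity over the 6 arrays.

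Ratios of array pairs were computed for 6 comparisons over all 18194 genes. A ratio over 2 or under 0.5 counted as a change, the thresholds of the study's array analysis. The spread was 1.4826 times the median absolute deviation of log2 ratios in bins of about 400 genes of like signal. The number of arrays limits the precision, and no p-value was computed. The 2-fold threshold and the spread were checked on simulated ratios with changes planted in bright genes. The code that counted the genes was not part of that check.

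The genes, the 5 further pathway lists, the marker lists and the motifs were chosen with earlier results of these data known. Signals on all arrays were printed for those of the 39 genes that were past 2-fold in at least 1 comparison, and for Xbp1, Atf6, Ern1, Hspa5, Hspa1a and Hspa1b. Hsp90b1 and Hspa8, and Hspa4l of the further lists, were added after their values were seen. Of each further list up to 4 genes with the largest stimulation ratio above the array median were named, with Eif2ak3, Atf4, Ddit3, Ppp1r15a, Trib3, Hsf1, Hsp90aa1 and Hsp90ab1 in any case. Promoter windows came from RefSeq, GRCm38.p6.

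Alternatives were averaging a gene's probe sets, taking that with the largest ratio, omitting those prone to cross-hybridization, centring, quantile normalization, a filter at the array median, a floor at the same value and a threshold of 3.16-fold. A filter at the 75th percentile was added after the data were seen. Python 3.11.15, numpy 2.4.6, pandas 2.3.3 and matplotlib 3.10.9 were used.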

Additional observations from a re-analysis of the deposited data

Results flagged for a closer look

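The stimulation ratios of 2 genes had opposite signs in the cultures, were past 2-fold in 1 of them and rested on signals above the array median. Edem1, Pdia3, Derl2 and Dnajb1 also had opposite signs, but stayed within 2-fold in both cultures. Herpud1 was at a log2 ratio of 1.37 in Th2-1st and -0.37 in the Th2-4th cells, with a second probe set at 1.68 and -0.93. Ern1 was at 0.0226 in Th2-1st and -1.02 in the Th2-4th cells, the first within its spread of 0.90, and its next brightest probe sets gave -0.72 and 0.02 in Th2-1st and -0.42 and 0.19 in the Th2-4th cells. With 1 array per condition the difference between the cultures was not tested for either gene.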

How the results depend on the processing

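Of 48 medians recomputed under the alternatives, 47 moved by less than the spread and 0 changed sign. The exception was the knockdown median in Th2-1st cells, which centring each array on its median put at -0.20. Centring moved the median of all genes by over 0.1 in that comparison (from 0.05 to -0.12) and in the culture-stage comparisons (from 0.17 to -0.07 without and from 0.10 to -0.14 with stimulation). Of 309 recomputed ratios of the single genes past 2-fold, 298 stayed past it, 11 fell short and 0 changed direction. Many could not fall short. The floor and the filter at the array median (39 ratios each) changed no ratio or median, as all 39 genes lay above it. The filter at the 75th percentile (36 ratios) only kept or dropped a ratio. The largest-ratio probe set (39 ratios) could not give a smaller one. The 11 came from centring (4 of 39), quantile normalization (4 of 39) and the mean over probe sets (3 of 39). The stimulation counts over 2-fold ranged from 2 to 17 in Th2-1st and from 6 to 18 in Th2-4th cells, the lowest being those at a threshold of 3.16-fold (10 to the power 0.5).

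That threshold also left 0 genes lower on stimulation and 0 lower on knockdown in Th2-4th cells, 1 higher and 0 lower in unstimulated and 0 higher and 1 lower in stimulated Th2-4th against Th2-1st cells. The single fall on stimulation in Th2-4th cells (Ern1) also became 0 with the mean over probe sets (-0.51), centring (-0.99) and quantile normalization (-0.92). With GATA3 siRNA in Th2-1st cells, 1 gene was over 2-fold with the mean over probe sets and with the largest-ratio probe set, through a dim probe set of Pdia4. For culture stage, the largest-ratio probe set gave 4 over and 7 under without stimulation and 5 under with it, and centring gave 1 over in either state. Hspa5 in Th2-1st cells was at 0.91 with the mean over probe sets. No paired analysis was possible because each condition had 1 array and the labels carry no replicate numbers.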
